A study of Homo sapiens with 9 samples.

Results

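Histone genes of the numbered H1, H2A, H2B, H3 and H4 families were followed across 3 related human breast epithelial cell lines in RNA that had been selected for poly(A) tails. Members were the genes whose symbol is H1 followed by a dash and a number, or H2AC, H2BC, H3C or H4C followed by a number. The rule found 73 members among the 62666 genes of the deposited table: 10 of class H1, 17 of H2A, 18 of H2B, 13 of H3 and 15 of H4. It used no measured value. Of the 73 members, 33 passed a filter on low counts and could be tested, 40 did not, and 8 of those 40 had 0 counts in all 9 libraries.

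The lines were MCF10A, a non-tumorigenic mammary epithelial line, MCF10AT1, a derivative that carries an activated HRAS and serves as a model of the premalignant state, and MCF10Ca1a, which descends from it and forms carcinomas. Each was sequenced in 3 libraries, so that each stage stands on 1 line, and the labels do not say whether the libraries came from separate cultures. P-values therefore measure the spread between these libraries, which may be technical. Per the labels, all 3 lines grew in DMEM/F12 with insulin, epidermal growth factor, hydrocortisone and cholera toxin. Horse serum was 5% for MCF10A and MCF10Ca1a and 2.5% for MCF10AT1, so serum and line cannot be told apart in the 2 comparisons with MCF10AT1. The study sequenced the lines to follow expression along breast cancer progression.

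Histones H2A, H2B, H3 and H4 form the core that DNA wraps around in a nucleosome, and H1 binds the linker between nucleosomes. Most genes of these families lie in clusters, are transcribed in S phase and give intronless messages that end a few bases after a conserved stem-loop, bound by the stem-loop binding protein SLBP, with no poly(A) tail. The same genes can also give longer messages that run past the stem-loop to a poly(A) signal, or are spliced, and these are known in cells that have left the cycle or differentiated. H1-10 is an exception among the members: its message carries a poly(A) tail and is made outside S phase. Poly(A) selection keeps tailed messages, so the values below describe those, and whatever tailless message was carried along, and not the whole histone message pool.

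The stem-loops are shown because the end of the message bears on what such a library can hold. The motif searched in the sense strand of GENCODE 29 transcripts was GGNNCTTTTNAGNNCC, 16 bases long. It was found in 41 of the 101 transcripts of members that have a GENCODE 29 sequence (40.6%) and in 128 of all 206694 transcripts (0.0619%). Each line below gives a site 5′ to 3′ with 5 bases on either side, with the motif in capitals.
H2BC21: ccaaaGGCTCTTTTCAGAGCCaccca
H2AC6: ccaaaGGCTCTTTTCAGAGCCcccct
H2AC18 and H2AC19: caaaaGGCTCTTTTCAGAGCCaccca
H2AC25: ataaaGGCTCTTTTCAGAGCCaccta
H2BC5: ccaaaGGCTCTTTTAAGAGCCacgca
H2BC9: ccaaaGGCTCTTTTCAGAGCCactta
H4C14: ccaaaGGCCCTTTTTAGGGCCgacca

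The models differ in what follows these sites. The annotated H2BC21 transcript of 2194 bases runs 1729 bases past its stem-loop, the 1668-base transcript of H2AC6 runs 1128 bases past, and that of H2BC9 runs 1640 bases past. The models of H2AC18 and H2AC19 stop 35 bases after it, and the stem-loop transcript of H2BC5 stops 39 bases after it. Of the 41 transcripts with the motif, 31 ran more than 100 bases past it (called extended below) and 10 ended within 100 bases (called near-end). A model without the motif may be a spliced form that leaves it out or a model that stops at the coding sequence.

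Promoters of members share elements that the rule did not use. RefSeq promoter sequences (GRCh38.p14) were matched for 67 of the 73 members, and the 250 bases before the start were searched on both strands for the CCAAT box (CCAAT), for the TATA box (TATAAA) and for the octamer bound by OCT1 (ATTTGCAT). CCAAT stood in 56 of 67 members (83.6%) against 32% of 35116 RefSeq promoters, TATAAA in 43 of 67 (64.2%) against 10.7%, and the octamer in 26 of 67 (38.8%) against 1.63%. The octamer was in 14 of 18 H2B promoters and 11 of 16 H2A promoters, in 1 of 11 H3 promoters, and in 0 of 13 H4 and 0 of 9 H1 promoters. CCAAT was in every H2A, H2B and H3 promoter matched (16, 18 and 11) and in 3 of 13 H4 promoters. These matches are letters and not measured binding. Outside the near-identical pairs, H2BC21 rose most and H2BC9 fell most among members with 50 counts or more. H2AC6 and H2BC4 are a head-to-head pair whose members both rose in MCF10Ca1a. Promoters of these members follow, each read 5′ to 3′ on the gene's strand, with these 3 motifs on either strand in capitals.
H2BC21, minus strand, chr1:149886683-149886932: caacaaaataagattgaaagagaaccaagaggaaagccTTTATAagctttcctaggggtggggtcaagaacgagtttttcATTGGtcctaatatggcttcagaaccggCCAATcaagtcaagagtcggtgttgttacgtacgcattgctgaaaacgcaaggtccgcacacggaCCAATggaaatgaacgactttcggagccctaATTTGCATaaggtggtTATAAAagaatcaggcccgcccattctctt
H2AC6, plus strand, chr6:26123922-26124171: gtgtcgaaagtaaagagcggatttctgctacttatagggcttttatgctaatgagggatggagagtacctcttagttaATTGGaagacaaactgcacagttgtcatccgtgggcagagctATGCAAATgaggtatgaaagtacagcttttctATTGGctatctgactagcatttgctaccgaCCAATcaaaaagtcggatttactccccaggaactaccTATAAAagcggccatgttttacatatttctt
H2BC9, plus strand, chr6:26251364-26251613: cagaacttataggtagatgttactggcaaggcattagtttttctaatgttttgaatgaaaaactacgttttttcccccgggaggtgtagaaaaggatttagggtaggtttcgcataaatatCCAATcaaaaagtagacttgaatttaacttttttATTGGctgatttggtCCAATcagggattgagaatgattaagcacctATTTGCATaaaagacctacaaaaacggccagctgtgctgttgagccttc
The promoter of H2BC4, chr6:26123927-26124176 on the minus strand, is nearly the same stretch as that of H2AC6 read from the other side. The H2BC9 window held CCAAT and the octamer and no TATAAA.

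Levels are given as CPM, counts per M of the TMM-scaled library total, which compare 1 gene or sum between libraries, and as TPM where genes of different length are compared. Means are given with the SD over 3 libraries. Library totals ran from 32.9 to 69.5 M counts, TMM factors from 0.978 to 1.02, and no replicate libraries were identical. In bulk RNA, fewer cells of a type and less RNA per cell cannot be told apart.

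In MCF10Ca1a the summed level of every class (for H1, of its chromosome 6 genes) was above that of both other lines in every library, most of all for H2A, while MCF10A and MCF10AT1 lay closer to each other. Together, 71 of the 73 members, H1-10 not among them, summed to 43.2, 46.8 and 51.1 CPM in the MCF10A libraries. They summed to 47.4, 49.7 and 48.5 CPM in MCF10AT1 and to 155, 156 and 152 CPM in MCF10Ca1a. The MCF10Ca1a level was thus 3.28 times that of MCF10A (log2 change 1.71, SE 0.0604) and 3.18 times that of MCF10AT1 (1.67, SE 0.0603), with no overlap, and MCF10AT1 stood at 1.03 times MCF10A with overlapping libraries. In summed TPM, which weighs reads by length, MCF10AT1 was instead below MCF10A without overlap, at 104 ± 2.38 against 117 ± 2.35 TPM, and MCF10Ca1a was at 354 ± 11.4. An exact permutation test over libraries (two-sided, 3 against 3) gave p = 0.1 for both comparisons of MCF10Ca1a, the smallest p that this design allows, and p = 0.6 for MCF10AT1 against MCF10A. Class and cluster sums carry a fitted log2 change and SE but no p of the fit, since members were summed with earlier results known. The pairs H2AC18 with H2AC19 and H4C14 with H4C15, near-identical copies whose reads cannot be told apart, were tested as sums.

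Summed H2A was 15, 17 and 18.7 CPM in MCF10A, 19.1, 20 and 20.1 in MCF10AT1, then 85.5, 87.6 and 82.2 in MCF10Ca1a. It was 5.03 times as high in MCF10Ca1a as in MCF10A (log2 change 2.33, SE 0.0702) and 4.31 times as high as in MCF10AT1 (2.11, SE 0.0695). Summed H2B was 16.2, 16.1 and 17.3 CPM in MCF10A, 16.4, 17.7 and 16.3 in MCF10AT1, then 45.7, 44.7 and 45 in MCF10Ca1a, so that the first 2 lines overlapped and MCF10Ca1a stood at 2.73 times MCF10A (1.45, SE 0.0534). That log2 change was 0.773 with the deposited scaled counts and 2.41 without H2BC12, the largest H2B gene. In summed TPM, H2B was 46.9 ± 2.78 in MCF10A, 39.6 ± 2.18 in MCF10AT1 and 89.2 ± 0.97 in MCF10Ca1a, so that on this scale MCF10AT1 lay below MCF10A without overlap.

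Summed H4 in CPM was lower in MCF10AT1 than in MCF10A. It was 6.11, 7.37 and 8.05 CPM in MCF10A, 4.5, 3.89 and 4.8 in MCF10AT1, then 13.3, 13.1 and 13.1 in MCF10Ca1a. The log2 change was -0.71 (SE 0.106) for MCF10AT1 against MCF10A and 0.88 (SE 0.103) for MCF10Ca1a against MCF10A, with no overlap in either. Both rested on the copies H4C14 and H4C15. Without this pair, a sum formed after its values were seen, H4 was 2.48 ± 0.579 CPM in MCF10A, 2.07 ± 0.272 in MCF10AT1 and 2.71 ± 0.159 in MCF10Ca1a, and both derived lines overlapped MCF10A. Summed H3 was the lowest class, at 1.37, 1.98 and 1.99 CPM in MCF10A, 1.75, 2.07 and 2.11 in MCF10AT1, then 2.29, 2.68 and 2.2 in MCF10Ca1a. The MCF10Ca1a libraries were above all others by a small step (log2 change against MCF10A 0.42, SE 0.166). The step was 0.253 without MCF10A replicate 1 and 0.119 with the deposited scaled counts. Against MCF10AT1 it was 0.273, and 0.177 without MCF10AT1 replicate 1. The step was that of H3C10: without it, again a sum formed after its values were seen, H3 was 1.43 ± 0.342 CPM in MCF10A, 1.27 ± 0.154 in MCF10AT1 and 0.944 ± 0.15 in MCF10Ca1a, where it was the lowest on average.

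Of class H1, the 6 genes on chromosome 6 were summed. They were 4.43, 4.45 and 5.09 CPM in MCF10A, 5.65, 6.02 and 5.24 in MCF10AT1, then 7.96, 8.06 and 9.03 in MCF10Ca1a. The log2 change was 0.28 in MCF10AT1 against MCF10A and 0.84 in MCF10Ca1a against MCF10A, with no overlap between any of the lines. The exact permutation p was 0.1 for every class in both comparisons of MCF10Ca1a. For MCF10AT1 against MCF10A it was 0.1 for H1, H2A and H4 and 0.5 for H2B and H3.

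**Figure D1:**
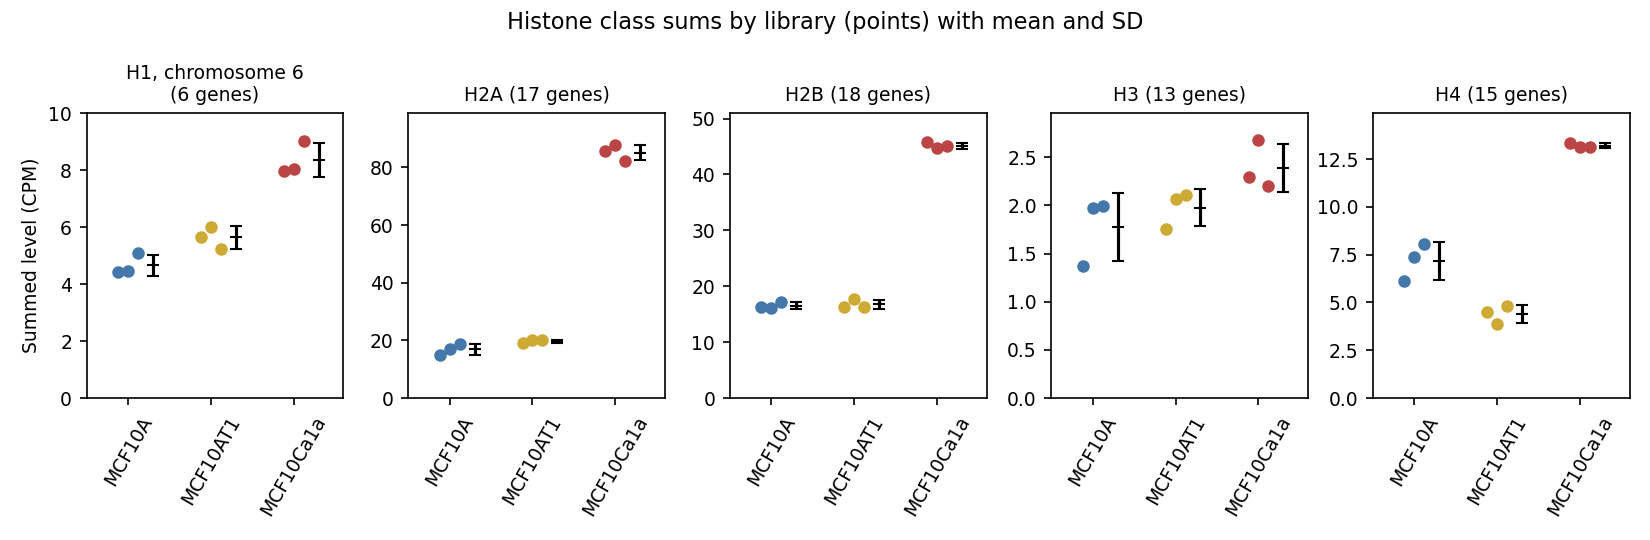
Summed level of each histone class in CPM (for H1, of its 6 genes on chromosome 6), 1 point per library with the mean and SD of each line beside the points, each panel on its own axis from 0. The MCF10Ca1a points lie above all others in every panel, at 85.1 ± 2.74 CPM against 16.9 ± 1.85 in MCF10A for H2A, while in the H4 panel the MCF10AT1 points, 4.4 ± 0.462 CPM, lie below those of MCF10A.

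Single members were tested with edgeR over all 17910 genes that passed the filter, with Benjamini-Hochberg adjustment and an adjusted p under 0.05 as the threshold. Between these lines much of the transcriptome differed: 61.6% of all genes tested passed in MCF10AT1 against MCF10A, 78.4% in MCF10Ca1a against MCF10AT1 and 80.9% in MCF10Ca1a against MCF10A. In MCF10Ca1a against MCF10A, 17 of 33 members rose and 3 fell, where 39% of all genes tested rose and 41.9% fell. In MCF10Ca1a against MCF10AT1, 17 rose and 1 fell, beside 38% and 40.3% of all genes. In MCF10AT1 against MCF10A, 9 rose and 7 fell, beside 29.8% and 31.8%. The share of members that rose in MCF10Ca1a (17 of 33) was above that of all genes, and the share that fell was far below it, whereas in MCF10AT1 against MCF10A the share that rose was near that of all genes. The 17 rises against MCF10A include H1-4, H2BC8 and H2BC18, which passed the filter only through their MCF10Ca1a libraries and so had to be high there. The last 2 of these are also among the 17 rises against MCF10AT1. H2AC18, counted among the 7 falls in MCF10AT1 and the 17 rises against it, passed only through its MCF10A libraries and so had to be high there. The median log2 change of the 33 members was 0.85 in MCF10Ca1a against MCF10A, 0.86 against MCF10AT1 and -0.01 in MCF10AT1 against MCF10A, where the medians of all genes were -0.05, -0.04 and -0.004. The comparisons share libraries, so their counts are not independent.

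Class by class, MCF10Ca1a against MCF10A gave 8 rises and 2 falls among 12 H2B genes tested and 4 rises among 9 H2A genes. It gave 1 rise each among 2 H3 and 6 H4 genes, beside 39% of all genes that rose and 41.9% that fell. The 8 H2B rises include H2BC8 and H2BC18, which passed the filter only through MCF10Ca1a and so had to be high there. The shares of H2A and H3 genes that rose are near the share of all genes that rose, and that of H4 is below it. No H2A, H3 or H4 gene tested was called as a fall. The H2A rises include H2AC19, whose reads cannot be told from those of its copy. A near-identical copy can take the reads of its partner, so the pairs H2AC18 with H2AC19 and H4C14 with H4C15 were also summed before the fit. The counts were then 17 rises and 3 falls in MCF10Ca1a against MCF10A, 16 and 1 against MCF10AT1, and 8 and 6 in MCF10AT1 against MCF10A. Of all genes in that fit, 39% rose and 41.9% fell in the first of these comparisons, 38% and 40.4% in the second, and 29.8% and 31.8% in the third.

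**Figure D2:**
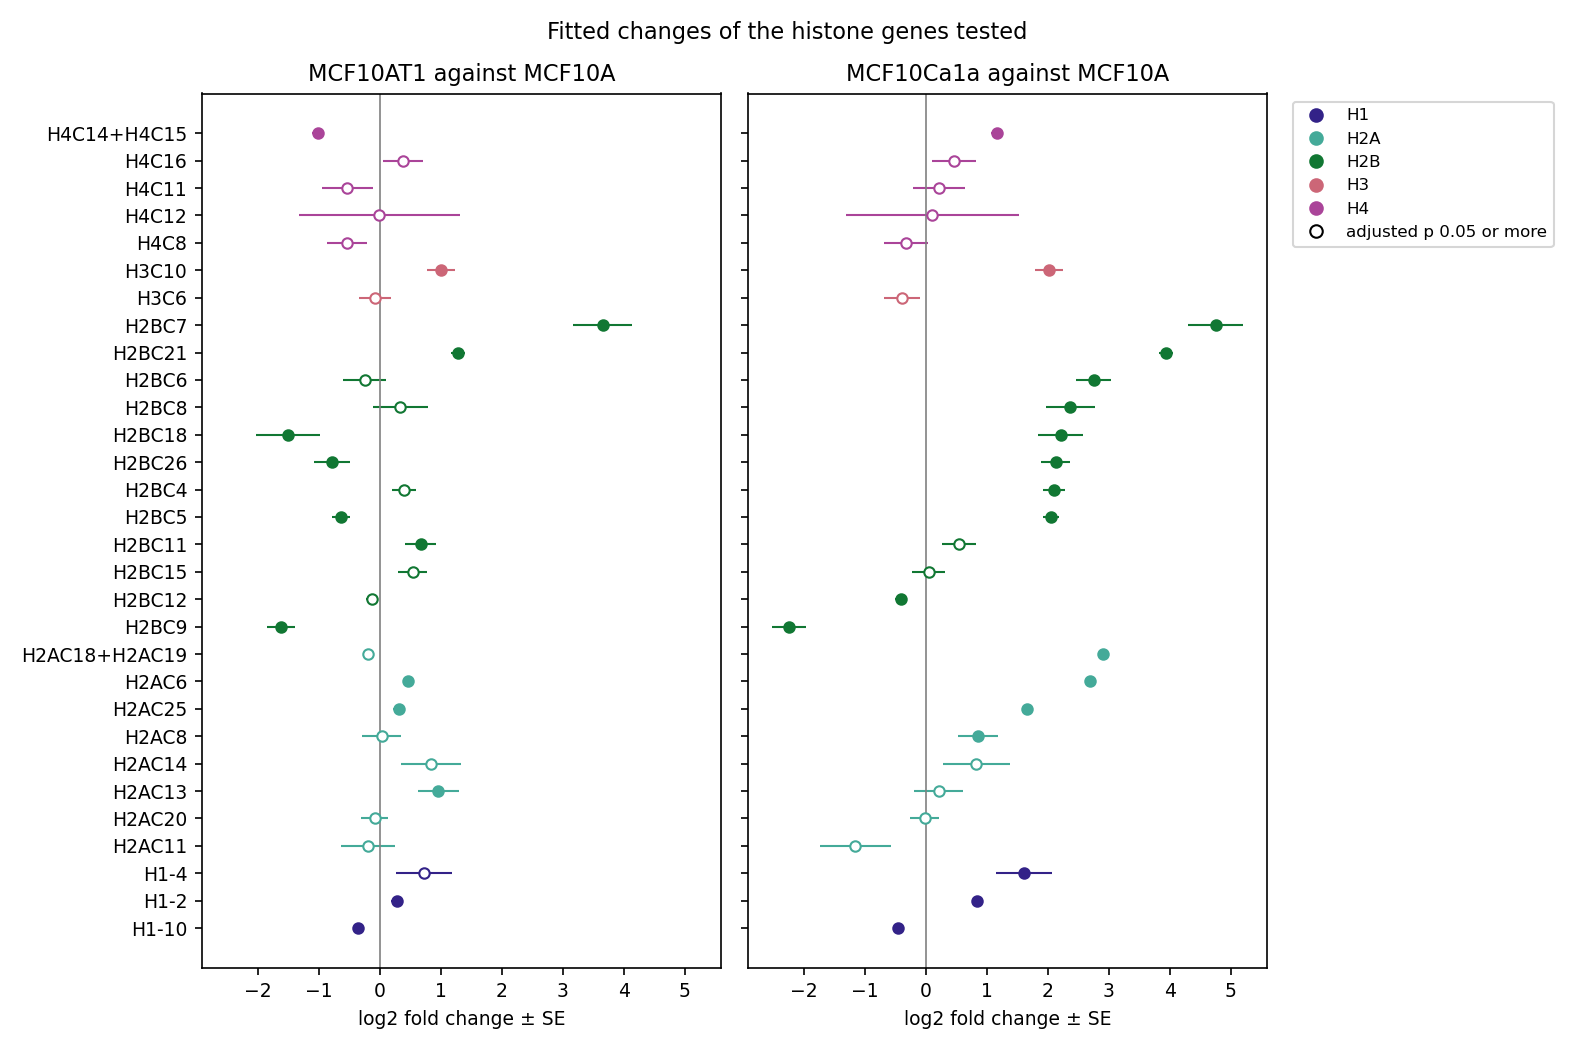
Fitted log2 fold change with its SE for members tested, with 2 near-identical pairs summed, in MCF10AT1 (left) and MCF10Ca1a (right) against MCF10A, coloured by class; open circles have an adjusted p of 0.05 or more. On the right most H2B genes lie above 0, up to 3.93 for H2BC21 and 4.75 for the low-count H2BC7, with H2BC9 at -2.25, and on the left the points spread to both sides.

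H1-10 (chr3:129314771-129316277, minus strand), an H1 variant encoded outside the clusters, was 62, 54.1 and 55.3 CPM in MCF10A, 43.1, 46.7 and 43.8 in MCF10AT1, then 42.1, 39.6 and 43.6 in MCF10Ca1a. It fell by 0.36 on the log2 scale in MCF10AT1 (SE 0.061, adjusted p = 0.00017) and by 0.45 in MCF10Ca1a against MCF10A (SE 0.0626, adjusted p = 1.32e-05). No difference passed between the last 2 lines (adjusted p = 0.191), though 2 of 22 alternatives called it. In TPM, H1-10 was higher in MCF10Ca1a than in MCF10AT1 without overlap, at 54.6 to 56.4 against 46.9 to 50.1. It overlaps the annotated antisense gene H1FX-AS1. The kit was stranded, but whether strand was used in quantification is not given in the sources used here, so its reads and those of the antisense gene may not be told apart.

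H1-2 (chr6:26055787-26056428, minus strand) made up nearly all of the chromosome 6 H1 signal, 96.5% of it over the 9 libraries. It rose at each step, from 4.29, 4.25 and 4.91 CPM in MCF10A to 5.41, 5.81 and 5.11 in MCF10AT1 (log2 change 0.28, SE 0.0934, adjusted p = 0.019). It was 7.66, 7.88 and 8.63 CPM in MCF10Ca1a, a log2 change of 0.84 against MCF10A (SE 0.0951, adjusted p = 1.62e-06). The first step was no longer called without MCF10A replicate 2 (0.24) or MCF10AT1 replicate 2 (0.23), or on the log2(TPM + 1) scale (0.15). H1-4, another cluster gene, had 3, 6 and 5 counts in the MCF10A libraries, 10, 7 and 6 in MCF10AT1 and 6, 6 and 11 in MCF10Ca1a, where the libraries are smaller. The log2 change against MCF10A was 1.61 (SE 0.456). It rests on these few reads and on a gene that passed the filter only through MCF10Ca1a. Per length, H1-10 stood above H1-2 in every line, at 70.9 ± 10.3, 48.5 ± 1.59 and 55.3 ± 1 TPM, where H1-2 averaged 9.5, 10.6 and 18.7 TPM.

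Among H2A genes, most counts belonged to H2AC6, H2AC25 and the copies H2AC18 and H2AC19, in an order that differed between lines. Per length, the pair had 39.1 ± 0.695% of H2A TPM in MCF10A, 31.3 ± 1.87% in MCF10AT1 and 58.4 ± 0.381% in MCF10Ca1a. H2AC25 had 27.7 ± 1.67%, 31.7 ± 2.42% and 17.6 ± 0.542%, and H2AC6 had 16 ± 1.23%, 20 ± 0.486% and 21 ± 0.545%. The pair thus led in MCF10A and MCF10Ca1a and was level with H2AC25 in MCF10AT1. H2AC6 (chr6:26124145-26139116, plus strand) was 4.19, 4.91 and 4.71 CPM in MCF10A, 6.27, 6.38 and 6.35 in MCF10AT1, then 30.1, 31.6 and 27.5 in MCF10Ca1a, with no overlap between any of the lines. It rose by a log2 change of 0.46 in MCF10AT1 (SE 0.08, adjusted p = 0.000213) and by 2.69 in MCF10Ca1a against MCF10A (SE 0.0767, adjusted p = 8.12e-13), 6.45-fold. Its promoter is the CCAAT-rich stretch printed above that it shares with H2BC4.

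H2AC25 (chr1:228456979-228457873, minus strand), from the smaller of the chromosome 1 clusters, was 5.44, 5.65 and 6.99 CPM in MCF10A. It was 7.02, 7.41 and 8.2 CPM in MCF10AT1 and 19.7, 19.4 and 18.3 in MCF10Ca1a. It rose by 0.32 in MCF10AT1 (SE 0.0964, adjusted p = 0.0107) and by 1.66 in MCF10Ca1a against MCF10A (SE 0.0954, adjusted p = 1.05e-09), 3.17-fold. The first step was no longer called without MCF10A replicate 2 (0.27) or MCF10AT1 replicate 3 (0.26), with thinning (0.25) or on log2(TPM + 1) (0.17).

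H2AC18 and H2AC19 (chr1:149842218-149842750 and chr1:149851061-149851594) are near-identical copies whose printed stem-loop sites are the same. The deposited counts gave H2AC18 260, 300 and 370 reads in MCF10A, 0 in each MCF10AT1 library and 303, 972 and 0 in MCF10Ca1a. H2AC19 had 0 in each MCF10A library, 281, 281 and 239 in MCF10AT1 and 931, 210 and 1232 in MCF10Ca1a. Counts thus moved whole between the copies even within MCF10Ca1a, so a change of either copy alone cannot be told from the assignment of shared reads. Taken at face value, H2AC18 would be at least 101-fold lower and H2AC19 at least 90.4-fold higher in MCF10AT1 than in MCF10A, against a floor of 3 counts per library.

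The sum of the copies was steady within each line: 4.05, 4.64 and 5.3 CPM in MCF10A, 4.21, 4.24 and 3.85 in MCF10AT1, then 34.5, 35.1 and 34.7 in MCF10Ca1a. It showed no change that passed in MCF10AT1 against MCF10A (log2 change -0.19, SE 0.0917, adjusted p = 0.0936). In MCF10Ca1a it rose 7.44-fold against MCF10A (2.90, SE 0.0835, adjusted p = 7.74e-13) and 8.47-fold against MCF10AT1 (3.08, SE 0.0849, adjusted p = 8.80e-13). Per length the pair was the highest histone message of the clusters in MCF10Ca1a, at 124 ± 4.76 TPM against 44.4 ± 3.03 for H2AC6 and 37.3 ± 1.84 for H2AC25.

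**Figure D3:**
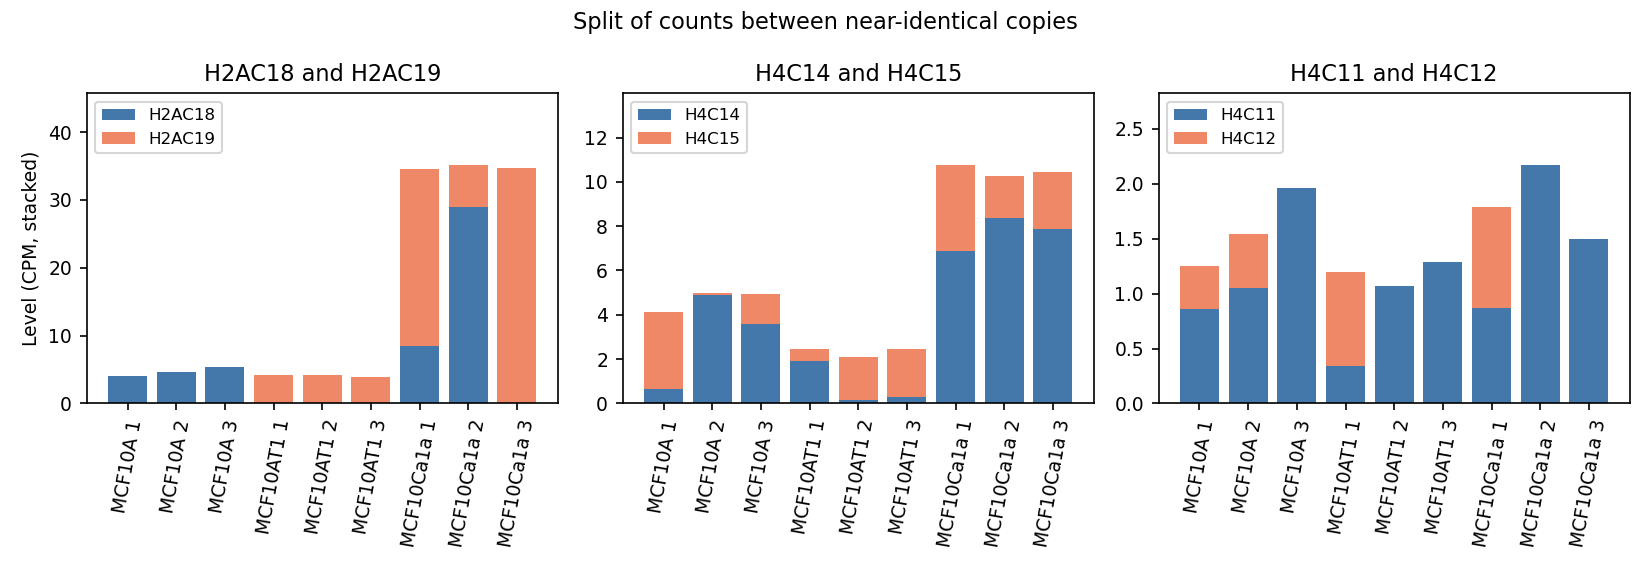
Level in CPM of the copies of 3 near-identical pairs, stacked, for each of the 9 libraries, each panel on its own axis from 0. In the left panel the bars change colour between libraries while their height stays near 4 to 5 CPM in MCF10A and MCF10AT1 and near 35 CPM in MCF10Ca1a; the H4 pairs change colour in the same way.

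Among H2B genes, H2BC21 (chr1:149884459-149886652, minus strand) changed most of those with 50 counts or more. It was 1.19, 1.22 and 1.43 CPM in MCF10A, 2.67, 3.49 and 3.22 in MCF10AT1, then 20.7, 19 and 19.2 in MCF10Ca1a. The lines did not overlap, and the gene rose 2.43-fold at the first step (log2 change 1.28, SE 0.122, adjusted p = 7.28e-07) and 6.28-fold at the second (2.65, SE 0.103, adjusted p = 2.56e-11). Against MCF10A the rise in MCF10Ca1a was 15.3-fold (3.93, SE 0.115, adjusted p = 9.91e-13). Its annotated transcript is the long one that runs past the stem-loop and has AATAAA in its last 50 bases.

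H2BC4 and H2BC5 lie in the large chromosome 6 cluster. H2BC4 (chr6:26114873-26123926, minus strand), the head-to-head partner of H2AC6, was 0.811, 0.773 and 0.917 CPM in MCF10A and 1.44, 1.01 and 0.838 in MCF10AT1, which overlap. It was 3.47, 3.75 and 3.55 CPM in MCF10Ca1a and rose by 2.10 against MCF10A (SE 0.186, adjusted p = 1.18e-07). H2BC5 (chr6:26158146-26171349, plus strand) fell and then rose: it was 2.18, 2.41 and 1.96 CPM in MCF10A, 1.15, 1.63 and 1.43 in MCF10AT1, then 8.91, 9.87 and 8.46 in MCF10Ca1a. The change was -0.63 at the first step (SE 0.142, adjusted p = 0.00155) and 2.69 at the second (SE 0.137, adjusted p = 3.86e-10).

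H2BC12 and H2BC9 fell in MCF10Ca1a. H2BC12 (chr6:27146418-27146798, minus strand) held 56.4 ± 0.727% of H2B counts in MCF10A, 50.8 ± 1.8% in MCF10AT1 and 15.5 ± 2.32% in MCF10Ca1a. It was 9.2, 8.93 and 9.86 CPM in MCF10A, 8.58, 9.07 and 7.98 in MCF10AT1, then 6.82, 6.03 and 8.12 in MCF10Ca1a. It fell by 0.42 on the log2 scale in MCF10Ca1a against MCF10A (SE 0.102, adjusted p = 0.00186), and its fall from MCF10AT1 passed as well (-0.29, adjusted p = 0.0194) although those libraries overlapped. That second call was made in 14 of 22 alternatives. It was lost with DESeq2 (-0.24), with thinning (-0.24), on the 3 TPM scales (-0.06 each) and without MCF10AT1 replicate 2 (-0.26), MCF10Ca1a replicate 1 (-0.27) or MCF10Ca1a replicate 2 (-0.20). H2BC9 (chr6:26251651-26253710, plus strand) was 1.09, 1.13 and 1.33 CPM in MCF10A, 0.36, 0.377 and 0.419 in MCF10AT1, then 0.335, 0.119 and 0.282 in MCF10Ca1a. It fell by 1.62 in MCF10AT1 (SE 0.233, adjusted p = 3.97e-05) and by 2.25 in MCF10Ca1a against MCF10A (SE 0.28, adjusted p = 4.52e-06). H2BC9 and H2BC21 thus moved in opposite directions, with the same 16 capitals in their printed stem-loops. The annotated models of both are long and extended, but that of H2BC9 need not be the model quantified. In MCF10A replicate 1, H2BC9 had 70 counts at 4.54 TPM, where H2BC21 had 75.8 counts at 1.01 TPM. The ends of the 2 messages can therefore not be compared from these models.

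Smaller H2B genes, named after their values were seen, were also higher in MCF10Ca1a than in MCF10A. H2BC7 had 1, 3 and 1 counts in the MCF10A libraries, 27, 21 and 19 in MCF10AT1 and 20, 34 and 23 in MCF10Ca1a. It was at least 16.3-fold higher in MCF10Ca1a than in MCF10A (adjusted p = 2.7e-07) and at least 7.55-fold higher in MCF10AT1. H2BC6 rose by 2.75 (adjusted p = 7.26e-07) and H2BC26 by 2.13 (adjusted p = 1.68e-06). H2BC8 and H2BC18 passed the filter only through MCF10Ca1a, so their log2 changes, 2.37 and 2.21, are given as values only. H2BC18 and H2BC26 were lower in MCF10AT1 against MCF10A, by log2 changes of -1.50 (adjusted p = 0.0245) and -0.78 (adjusted p = 0.0324). Few reads lie behind the H2BC18 change: MCF10A had 4.3, 9.08 and 8.44, and MCF10AT1 had 3.16, 3.11 and 1.16, near the floor of 3. For H2BC26, MCF10A had 18, 15 and 20 reads and MCF10AT1 had 8, 10 and 12. Per length, the H2B order in MCF10A was led by H2BC12 (30.7 ± 1.79 TPM), with H2BC21 at a mean of 1.01 TPM. In MCF10Ca1a they stood at 24.6 ± 3.13 and 17.1 ± 0.939 TPM. The H2BC12 model is only 381 bases long, which raises its TPM.

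Only 2 of 13 H3 genes passed the filter. H3C10 (chr6:27810064-27811300, plus strand) was 0.327, 0.448 and 0.287 CPM in MCF10A, 0.66, 0.679 and 0.789 in MCF10AT1, then 1.2, 1.72 and 1.41 in MCF10Ca1a. It rose by 1.0 at the first step (SE 0.232, adjusted p = 0.00202) and by 1.02 at the second (SE 0.213, adjusted p = 0.000561), with no overlap. The first step was called in 21 of 22 alternatives. H3C6 (chr6:26224199-26227473, plus strand) was 0.546, 0.85 and 0.931 CPM in MCF10A, 0.54, 0.83 and 0.854 in MCF10AT1, then 0.782, 0.565 and 0.423 in MCF10Ca1a. These overlapped, and no comparison of H3C6 passed (adjusted p 0.836, 0.33 and 0.23).

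Among H4 genes, which all encode the same or nearly the same protein, the copies H4C14 (chr1:149832659-149839767, plus strand) and H4C15 (chr1:149854045-149861210, minus strand) held 65.7 ± 3.69% of the class counts in MCF10A, 53.1 ± 1.87% in MCF10AT1 and 79.4 ± 1.33% in MCF10Ca1a. Per length they held less, 35.3 ± 1.39%, 24.5 ± 2.1% and 50.6 ± 5.39% of H4 TPM, beside 51.1 ± 2.26%, 55.1 ± 2.31% and 40.6 ± 7.45% for the copies H4C11 and H4C12. Reads moved between H4C14 and H4C15: H4C14 had 42, 316 and 250 counts in the MCF10A libraries, 129, 10 and 18 in MCF10AT1 and 246, 281 and 279 in MCF10Ca1a. H4C15 had 224, 7 and 95, then 35, 128 and 134, then 139, 64 and 91. Their sum was 4.15, 4.99 and 4.94 CPM in MCF10A, 2.46, 2.08 and 2.45 in MCF10AT1, then 10.8, 10.3 and 10.4 in MCF10Ca1a, with no overlap. The pair fell in MCF10AT1 to 0.496 of the MCF10A level (log2 change -1.01, SE 0.104, adjusted p = 1.53e-06). In MCF10Ca1a it rose 2.23-fold against MCF10A (1.16, SE 0.0972, adjusted p = 6.28e-08) and 4.50-fold against MCF10AT1 (2.17, SE 0.104, adjusted p = 1.86e-10).

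H4C11 and H4C12, another near-identical pair, summed to 1.25, 1.55 and 1.96 CPM in MCF10A, 1.2, 1.07 and 1.29 in MCF10AT1, then 1.79, 2.17 and 1.49 in MCF10Ca1a. This sum was formed after the data were seen, so it has values and no test. Its log2 change was 0.61 (SE 0.198) from MCF10AT1 to MCF10Ca1a and 0.19 between the outer lines. The H2A pair H2AC13 and H2AC14, treated likewise, had 12, 20 and 17 counts in the MCF10A libraries, 32, 33 and 27 in MCF10AT1 and 10, 9 and 17 in MCF10Ca1a, with a log2 change of 0.93 (SE 0.283) in MCF10AT1 against MCF10A. Of the pair H3C14 and H3C15, H3C14 was at 0 in every library and H3C15 had at most 7 counts, so neither passed the filter. Without the filter H3C15 was not called in any of the 3 comparisons (adjusted p = 0.904, 0.747 and 0.914).

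The 40 members under the filter summed to 86, 107 and 121 counts in the MCF10A libraries, 81, 109 and 83 in MCF10AT1 and 30, 32 and 36 in MCF10Ca1a. This was 1.58 ± 0.207 CPM in MCF10A, 1.40 ± 0.222 in MCF10AT1 and 0.935 ± 0.0896 in MCF10Ca1a. These sums are a description, since a low member raised in MCF10Ca1a could pass the filter through that line and leave the set, as H1-4, H2BC8 and H2BC18 did. The largest of them was H3C3, an H3 gene of the chromosome 6 cluster, with 9, 12 and 16 counts in the MCF10A libraries, 8, 9 and 9 in MCF10AT1 and 1, 0 and 0 in MCF10Ca1a. With no filter on low counts, 65 members could be tested. In MCF10Ca1a against MCF10A 19 rose and 6 fell, beside 23.6% and 26% of all 32399 genes tested that way. Against MCF10AT1 20 rose and 5 fell, beside 22% and 25.3%, and in MCF10AT1 against MCF10A 8 rose and 6 fell, beside 18% in each direction. H3C8 had 2 to 8 counts in the MCF10A libraries, 8 to 12 in MCF10AT1 and 2 to 5 in MCF10Ca1a. The 8 members at 0 throughout were H1-7, H1-8, H2AC1, H2BC1, H3C4, H3C14, H4C6 and H4C7, of which H1-7, H2AC1 and H2BC1 are known from the testis and H1-8 from the oocyte.

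Members were then summed by genomic cluster, with positions from GENCODE 29 on GRCh38 for 69 members and from RefSeq on GRCh38.p14 for 4 (H2AC18, H2AC19, H3C2 and H3C3). The larger chromosome 1 cluster (chr1:149782689-149887916, 11 members) was 11.4 ± 1.23 CPM in MCF10A, 10.2 ± 0.289 in MCF10AT1 and 66.1 ± 0.805 in MCF10Ca1a, a log2 change of 2.54 between the outer lines (SE 0.0687). The smaller chromosome 1 cluster (chr1:228456979-228460470, 2 members) was 6.3 ± 0.854, 7.7 ± 0.639 and 20.3 ± 0.878 CPM, a log2 change of 1.69. The first chromosome 6 cluster (chr6:25726132-26285638, 34 members) was 15.9 ± 1.13, 17.5 ± 0.501 and 55.3 ± 2.37 CPM, a log2 change of 1.80. The second chromosome 6 cluster differed from these. At chr6:27125897-27893843, its 21 members were 13.2 ± 0.838, 12.8 ± 0.399 and 12 ± 0.556 CPM (log2 change -0.14, exact permutation p = 0.2). H2BC12 alone made 70.9 ± 2.21% of that cluster's counts in MCF10A, 66.7 ± 2.36% in MCF10AT1 and 58.3 ± 6.9% in MCF10Ca1a.

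Other genes near the clusters were counted in each comparison. In MCF10AT1 against MCF10A, beside 29.8% of all genes that rose and 31.8% that fell, 0 of 19 rose and 15 fell within 500 kb of the larger chromosome 1 cluster (median log2 change -0.74). Around the smaller 1 of 13 rose and 12 fell (median -1.26), around the first chromosome 6 cluster 4 of 17 rose and 9 fell (median -0.37), and around the second 3 of 23 rose and 6 fell (median -0.09). In MCF10Ca1a against MCF10A, where 39% of all genes tested rose and 41.9% fell, the counts were as follows. Within 500 kb of the larger chromosome 1 cluster, 5 of 19 other genes tested rose and 9 fell (median log2 change -0.28). Around the smaller 1 of 13 rose and 11 fell (median -1.48). Around the first chromosome 6 cluster 6 of 17 rose and 7 fell (median -0.07), and around the second 3 of 23 rose and 15 fell (median -0.54). In MCF10Ca1a against MCF10AT1, beside 38% and 40.3% of all genes, 11 of 19 rose and 4 fell around the larger chromosome 1 cluster (median 0.32). Around the smaller 3 rose and 5 fell (median -0.02), and around the first chromosome 6 cluster 8 rose and 7 fell (median 0.03). Around the second 5 rose and 12 fell (median -0.38). The histone genes tested, in the same order of clusters, had medians of 2.65, 2.13, 0.99 and -0.14 in this comparison. In MCF10Ca1a against MCF10A their medians were 1.41, 1.90, 1.83 and 0.21, where those of the other genes were all negative. In MCF10AT1 against MCF10A they were -0.11, -0.23, 0.16 and 0.54. Near-identical copies entered these medians singly.

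The deposited transcript counts were grouped by the end of each GENCODE 29 model for the same 71 members. Models were matched by identifier, and some transcripts were quantified at another length. In MCF10A replicate 1, H2AC11, extended at 2250 bases, had 12 counts at 0.8 TPM. Near-end H2AC8, of 509 bases, had 12 counts at 0.752 TPM. H2BC7, H2BC8 and H2BC9 likewise had high TPM for extended models. The shares thus follow GENCODE 29 labels, which need not be the ends of the models quantified. Extended transcripts took 39.3 ± 1.39% of the grouped counts in the MCF10A libraries, 43.2 ± 2.38% in MCF10AT1 and 49 ± 2.5% in MCF10Ca1a. Near-end transcripts took 14.9 ± 1.04%, 12.5 ± 0.643% and 25.4 ± 0.816%. Transcripts without a stem-loop took 45.8 ± 2.35%, 44.4 ± 2.74% and 25.6 ± 1.84%. Both kinds that hold the stem-loop thus had a larger share in MCF10Ca1a, with no overlap between lines (exact permutation p = 0.1, the smallest possible). In TPM the extended share was 26.7 ± 0.882%, 29.6 ± 2.33% and 32.1 ± 1.74%, where MCF10AT1 and MCF10Ca1a overlapped. All 3 kinds were at a higher level in MCF10Ca1a, and the share without a stem-loop was smaller because the other kinds gained more. In summed TPM, near-end transcripts were 26.4 ± 3.08 in MCF10A, 20.3 ± 2.16 in MCF10AT1 and 144 ± 10.7 in MCF10Ca1a. Extended transcripts were 31.3 ± 1.51, 30.7 ± 1.84 and 113 ± 5.61 TPM, and those without a stem-loop 59.4 ± 2.77, 52.9 ± 4.9 and 95.4 ± 4.56 TPM. The near-end gain lay in H2A, at 16.5 ± 0.947, 13.7 ± 0.771 and 126 ± 4.95 TPM, that is, chiefly in the models of H2AC18 and H2AC19 that end 35 bases past the site. Both models also have AATAAA in their last 50 bases, so a near-end model is not by that a tailless message. A read inside the coding sequence is common to several of these ends, and shares rest on how the quantifier divided such reads.

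Within H2B the extended share of counts was 20.5 ± 1.01% in MCF10A, 28 ± 2.45% in MCF10AT1 and 55.8 ± 1.7% in MCF10Ca1a, with no overlap between any of the lines. In TPM it was 16 ± 0.776%, 17.2 ± 1.48% and 35 ± 1.61%, and the first 2 lines overlapped. H2BC21, whose only model is extended, accounts for much of the extended H2B count. In H4 the extended share of counts was 74.5 ± 2.21%, 68.1 ± 1.04% and 84.7 ± 2.61%, and in H2A it was 55 ± 1.77%, 62.5 ± 2.35% and 44.2 ± 3.63%. Multi-exon transcripts took 29.1 ± 1.46% of all these counts in the MCF10A libraries, 26.4 ± 1% in MCF10AT1 and 34.3 ± 1.23% in MCF10Ca1a.

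In H2AC6, H2BC5 and H2BC4, chosen after their values were seen, transcripts with and without the stem-loop were both higher in MCF10Ca1a. H2AC6 had 3.1 CPM of its 1668-base transcript with 2 exons in MCF10A, 4.61 in MCF10AT1 and 18.4 in MCF10Ca1a, and 1.51, 1.72 and 11.3 CPM of the transcript without the stem-loop. H2BC5 had 1.61, 1.02 and 6.97 CPM of its spliced transcript without the stem-loop. Its stem-loop transcript had 0.574, 0.389 and 2.11 CPM. H2BC4 had 0.575, 0.846 and 2.58 CPM of the spliced form and 0.258, 0.251 and 1.01 of the form with the stem-loop. H2BC15 did not show this: its transcript with the stem-loop had 0.0323, 0.116 and 0 CPM, and its transcripts without it 0.299, 0.446 and 0.229 CPM and 0.13, 0.11 and 0.249 CPM. These transcript levels were not tested.

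**Figure D4:**
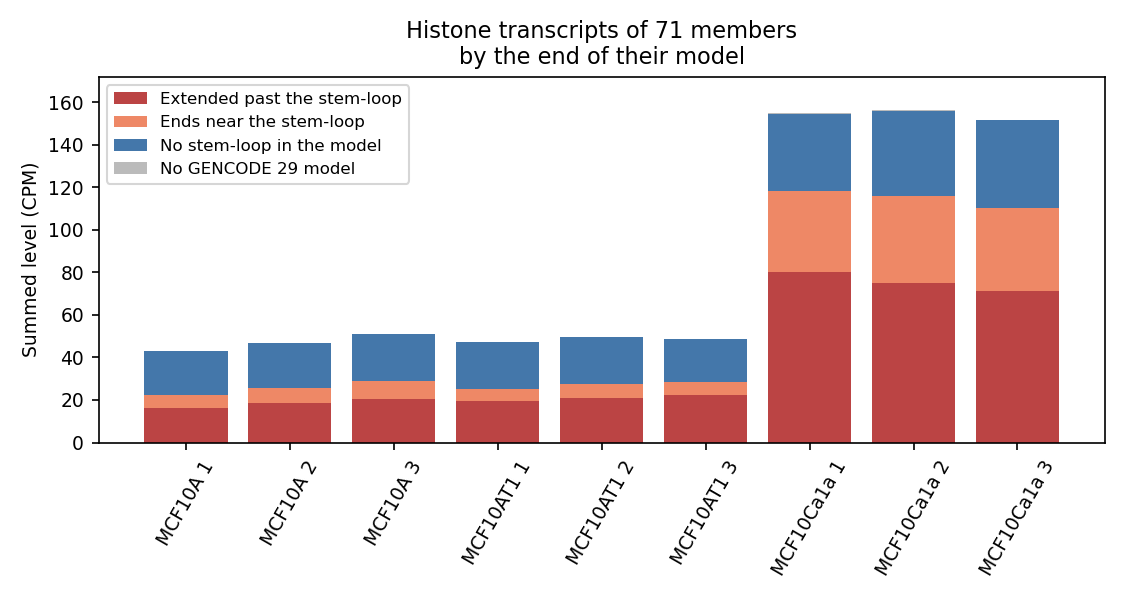
Summed level in CPM of the transcripts of 71 members, stacked by the end of the annotated model, for each of the 9 libraries, on an axis from 0. All 3 layers with an annotated model are larger in the MCF10Ca1a bars. As a share of the counts, the extended layer is 49 ± 2.5% there and 39.3 ± 1.39% in MCF10A, and the layer without a stem-loop is 25.6 ± 1.84% there and 45.8 ± 2.35% in MCF10A.

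Carry-over of tailless RNA through the selection was measured with a list of 29 such RNAs, of which 8 could be tested. Summed, they were 15.8, 18 and 18.8 CPM in MCF10A, 17.4, 24 and 16.6 in MCF10AT1, then 20.3, 16.1 and 36.4 in MCF10Ca1a, with MCF10Ca1a replicate 3 apart and the other libraries overlapping (exact permutation p = 0.4 for MCF10Ca1a against MCF10A). In that comparison 5 of 8 rose with all libraries, beside 39% of all genes (median log2 change 0.91), and 2 rose and 1 fell without replicate 3 (median 0.52). RN7SL3, a signal recognition particle RNA, rose by 2.54 (1.92 without that replicate). RMRP, the RNA of RNase MRP, rose by 0.89 (adjusted p = 0.00939) with it and showed 0.48, no longer called, without it, and RN7SK was at -0.20 (adjusted p = 0.27), a fall that was called without that replicate (-0.42). The part of carry-over in the histone levels was not tested beyond this. Without MCF10Ca1a replicate 3, the class sums of MCF10Ca1a against MCF10A were 2.35 for H2A, 1.45 for H2B, 0.47 for H3 and 0.88 for H4 on the log2 scale, and 16 members rose and 4 fell among 36 tested, beside 37.4% and 40% of all genes in that fit.

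Other genes of the histone pathway mostly fell in MCF10Ca1a. The counts of these lists stand beside 39% of all genes that rose and 41.9% that fell against MCF10A, 38% and 40.3% against MCF10AT1, and 29.8% and 31.8% in MCF10AT1 against MCF10A. Of 42 S phase genes, all passed as lower in MCF10Ca1a against MCF10A (median log2 change -1.33), and 41 against MCF10AT1. Their summed level was 4198 ± 127 CPM in MCF10A, 3710 ± 107 in MCF10AT1 and 1577 ± 12.1 in MCF10Ca1a. CCNA2, cyclin A2 of S phase, was at 228 CPM in MCF10A, 199 in MCF10AT1 and 25.7 in MCF10Ca1a and fell by 3.15 between the outer lines. PCNA, the replication clamp, was at 262, 325 and 81 CPM, a rise of 0.31 and then a fall of 2.01. Whether the histone levels are linked to this difference was not tested.

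Genes that make and end histone messages went both ways. Of 24 such genes, 6 rose and 14 fell in MCF10Ca1a against MCF10A (median -0.39), and 11 rose and 8 fell in MCF10AT1 against MCF10A. SLBP, which binds the printed stem-loops, was at 91.4 CPM in MCF10A, 102 in MCF10AT1 and 69 in MCF10Ca1a, and fell by 0.41 between the outer lines (adjusted p = 4.94e-06). NPAT, the coactivator of histone gene transcription, was at 28.7, 26.3 and 30.4 CPM, with no change that passed between the outer lines (0.08, adjusted p = 0.156). NCBP2 of the cap-binding complex rose most (0.88) and SNRPD3, an Sm protein, fell most (-1.87).

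Replication-independent histones, which replace the cluster histones outside S phase, mostly fell. Of 9 that could be tested among 18, 1 rose and 7 fell in MCF10Ca1a against MCF10A. H2AJ, a variant H2A, rose from a mean of 15.8 CPM in MCF10A to 29.8 in MCF10AT1 and 52.8 in MCF10Ca1a (1.74). H2AZ1, the H2A.Z of promoters, stood at 594, 566 and 127 CPM (-2.23) and H2AX, which marks DNA breaks, at 100, 66.6 and 22.7 CPM (-2.14). CENPA, the centromeric H3, fell most, from 40.2 to 30.7 and 5.94 CPM (-2.76). H3-3A was at 640, 301 and 304 CPM, lower in both derived lines (-1.09 and -1.08), while H3-3B, which encodes the same H3.3 protein, was at 641, 615 and 604 CPM (-0.08, adjusted p = 0.155). On the TPM scale, where the median of all genes shifts, the H3-3B difference changes sign.

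Histone chaperones, which carry histones to DNA, gave 4 rises and 20 falls among 25 in MCF10Ca1a against MCF10A (median -0.81). UBN2, of the HIRA complex, rose most (1.77) and TONSL, which binds new histones at the fork, fell most (-2.81).

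**Figure D5:**
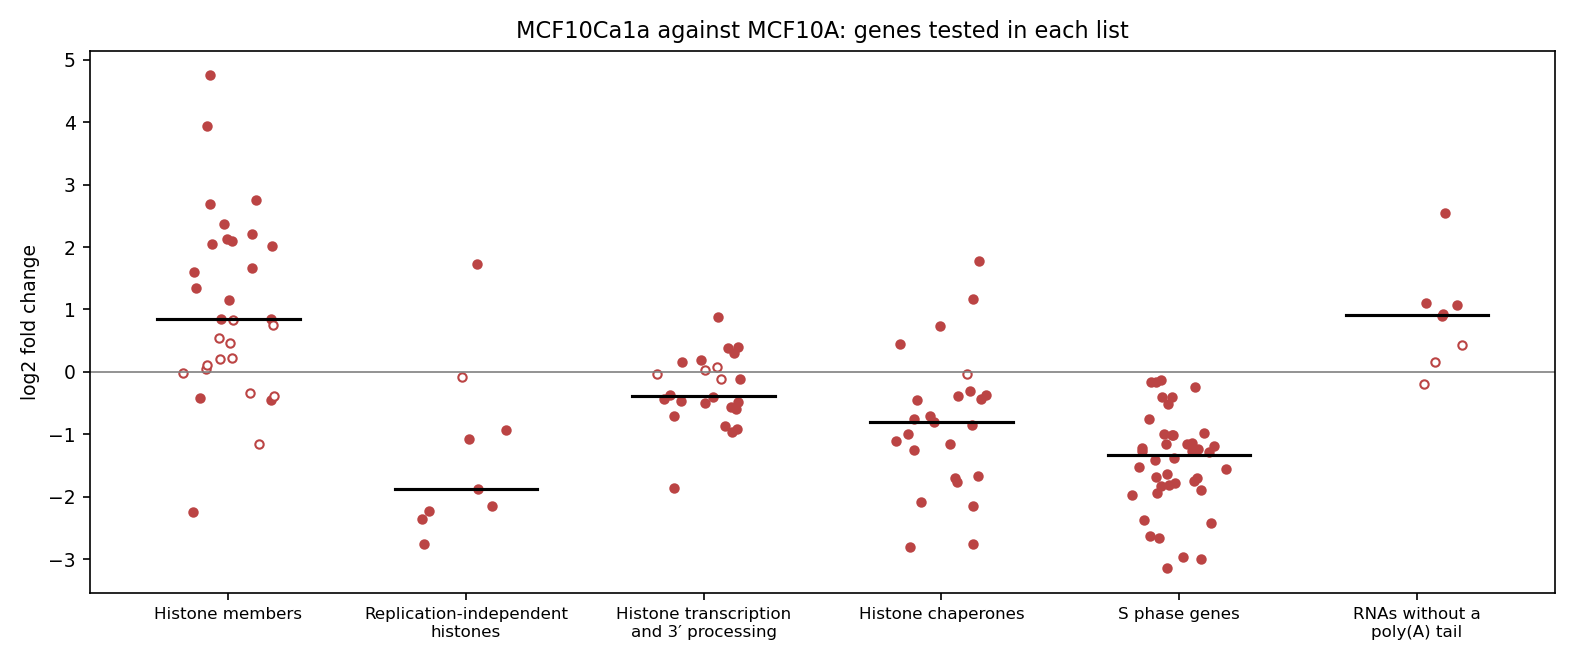
Fitted log2 fold change in MCF10Ca1a against MCF10A of genes tested in the histone members (without the copies H2AC18 and H2AC19) and 5 other lists, with the median as a bar; open circles have an adjusted p of 0.05 or more. The median is 0.85 for the members and 0.91 for the tailless RNAs, and it lies below 0 for the other 4 lists, down to -1.33 for S phase genes and lower still for the 9 replication-independent histones.

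Markers of cell identity differed between the lines as well. Summed epithelial keratins and adhesion genes were 4112 to 4960 CPM in MCF10A, 6006 to 6662 in MCF10AT1 and 5360 to 5681 in MCF10Ca1a. Within them MCF10Ca1a had less of the basal keratin gene KRT14 (log2 change -5.65 against MCF10A) and more of the luminal keratin gene KRT19 (6.98) and of EPCAM (3.14). Leukocyte markers summed to 21.1 to 26.4, 7.96 to 8.86 and 40.8 to 44.7 CPM, with 2 of 5 tested (CD14 and CD68). PTPRC had at most 2 counts and CD3E had 0. Endothelial markers summed to 3.48 to 3.9, 3.58 to 4.65 and 42.1 to 49.5 CPM through PECAM1 and KDR, with VWF at most 3 and CDH5 at most 1 count. Fibroblast markers summed to 13.2 to 14.2, 33.8 to 35 and 5.34 to 5.95 CPM. The part of these differences in the histone results was not tested.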

How the data were processed

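Poly(A) RNA of 9 libraries was prepared with a stranded mRNA kit, per the labels. The authors deposited estimated counts and TPM per gene and per transcript, with scaled and length-scaled versions of the gene counts. Salmon and the build hg38 are named in the submitters' processing notes without a role, and the annotation is not given in the sources used here. No depth or interval beyond these estimated counts is known, and near-identical copies share reads.

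The deposited counts were rounded to whole numbers. For 19 members at least 1 library had a value that was not whole within 0.05. Genes were kept with filterByExpr by line (minimum count 10, minimum total 15). Tests used glmQLFit and glmQLFTest of edgeR 4.0.16 in R 4.3.3 with TMM and all 9 libraries in 1 fit, adjusted by Benjamini-Hochberg over all genes; the fit was tested on simulated data. Class and cluster sums replaced their members in the table. Sums over 71 members leave out H1-10 and a member of class H1 that is not reported here. Exact permutation tests were two-sided over libraries. A floor is 3 counts per library and covers counting error only. Gene models were GENCODE 29, matched by identifier, and promoters came from RefSeq. Of the members, 16 overlap another annotated gene.

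The members and all lists were chosen with earlier results of these data known. Genes named were the 4 members of each class with the highest TPM, the 5 with the largest called rise or fall per comparison at a mean of 50 counts or more without overlap, members at the floor in 1 line and at 50 counts or more in another, the near-identical pairs, H1-10, and of each other list the largest rise and fall with a few preset genes. Alternatives were DESeq2 1.42.0, its size factors, limma 3.58.1 on log2(TPM + 1) and log2(TPM + 0.1), no filter, the other deposited counts, thinning, and leaving out members or libraries.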

Additional observations from a re-analysis of the deposited data

How the results depend on the processing

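The counts of members that rose in MCF10Ca1a stayed within 1.5 times under every setting tried, and the sums of H2A, H2B, H3 and H4 in MCF10Ca1a against both other lines kept their sign, except that of H3 when H3C10 was left out, a choice made after seeing the data. The H3 difference in mean log2 CPM was then -0.431 against MCF10AT1 and -0.578 against MCF10A. Counts of members that fell were less stable. In MCF10Ca1a against MCF10AT1, 1 member fell, and this became 5 without the filter and on log2(TPM + 1) without it, 7 with scaled counts, and 0 with DESeq2 (1 at an unadjusted p under 0.05), with thinning and on both filtered TPM scales. In MCF10Ca1a against MCF10A the 3 became 6 without the filter, 9 on unfiltered log2(TPM + 1) and 8 with scaled counts. In MCF10AT1 against MCF10A the 7 became 4 with DESeq2 and with only the lines compared, and the 9 that rose became 4 on unfiltered log2(TPM + 1). Leaving out single libraries gave 1 to 3 falls against MCF10AT1 (3 without MCF10A replicate 1) and 3 to 6 against MCF10A (5 without MCF10A replicate 1, 6 without MCF10Ca1a replicate 2). Replicate numbers did not pair the samples: deviations of same-numbered libraries correlated at -0.136 to 0.159. With the replicate number as a block, 16 members rose and 3 fell in MCF10Ca1a against MCF10A, 18 and 1 against MCF10AT1, and 8 and 7 in MCF10AT1 against MCF10A.

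Log2 changes of the sums follow, in the order MCF10AT1 against MCF10A, MCF10Ca1a against MCF10AT1 and MCF10Ca1a against MCF10A where 3 are given. Alternatives were not run for the chromosome 6 H1 sum. Without its largest member, H2A was 2.047 and 2.17 in the last 2 comparisons, H2B 0.197, 2.209 and 2.406, H3 0.539 and 0.837 in the last 2, and H4, where this is H4C14 without its copy, -0.201, 0.612 and 0.411. With scaled counts, H3 was 0.113 and 0.119 in the last 2, H2A 2.184 against MCF10AT1, H2B -0.114, 0.887 and 0.773, and H4 -0.519, 1.027 and 0.508. On log2(TPM + 1), where the median of all genes was -0.07, 0.13 and 0.06, H2A was -0.0118 and 2.436 in the first 2, H2B -0.237, 1.151 and 0.914, and H4 1.246 and 0.647 in the last 2. On log2(TPM + 0.1), with medians of -0.11, 0.21 and 0.10, H2A was -0.0120, 2.463 and 2.451, H2B -0.242, 1.169 and 0.927, H3 -0.101 in the first, and H4 1.31 and 0.673 in the last 2. On these 2 scales the first chromosome 6 cluster was -0.0658 and -0.0676 in MCF10AT1 against MCF10A, and the second 0.187 and 0.191 in MCF10Ca1a against MCF10AT1. H3-3B was there 0.3183 and 0.3186 against MCF10AT1 and 0.1257 and 0.1258 against MCF10A. Against MCF10AT1, DESeq2 size factors gave 2.156 for H2A, thinning 2.153 for H2A and length-scaled counts 1.37 for H4. Members past the filter alone gave H3 0.489 and 0.846 in the last 2. The share of multi-exon transcripts differed by -0.547 percentage points (first) and 7.439 (last) in TPM. The cause of these shifts was not tested. Of H4C14 alone, the rise in MCF10Ca1a against MCF10A (adjusted p = 0.0491) was called in 11 of 20 alternatives.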
